A study of Daphnia magna with 80 samples.

Results

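The genes described here are 277 of the 26646 gene IDs counted in whole animals of the water flea Daphnia magna. They are strongly male-biased genes that were also detected in females. The genes were chosen by their measured levels in these same libraries. A gene was taken when its median over male libraries was at least 5 CPM (read counts scaled to a common library total of 1000000), its median over female libraries was at least 0.1 CPM, and the male median was at least 8 times the female median. The rule allowed at most 300 genes, and that limit was not reached. Because the rule used the sex difference itself, this difference is described below and was not tested, and the tests concern age within each sex. The medians of the rule also depend on the ages sampled, so the age tests are not fully free of it.

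The study followed genetically identical males and females of strain Bham2 through adult life. Males were sampled at 13 ages between 8 and 40 days (37 libraries) and females at 15 ages between 10 and 80 days (39 libraries). All animals were kept under the same normal conditions, in hard COMBO medium at a 16:8 h light and dark cycle with green algae as food. The labels state that animals were frozen when the brood pouch was empty, which can apply only to females. How many animals made up a sample is not stated in the labels, and neither is whether replicates were grown apart. The p-values therefore cover only the variation among these samples, part of which may be technical.

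Daphnia usually reproduces without sex: a female makes daughters that carry her own genome. Under crowding, short days or food shortage, mothers make genetically identical sons instead, a switch that runs through juvenile hormone and, in the male embryo, through the gene doublesex. Males are smaller than females, carry long first antennules and hooked first legs used to hold a mate, and fill their body cavity with testes, whereas females devote much of their RNA to yolk and to the broods they mature at every moult. A gene that is high in males and low in females can therefore belong to tissue that females lack, or to tissue that both sexes have in different amounts. In bulk samples of whole animals, fewer cells of a type and less RNA per cell cannot be told apart. Gene IDs are printed as the files give them, since 0 of them matched the reference table of gene names, and no role is given to any ID.

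Depth was similar in both sexes. A male library held 1599627 to 33480868 gene counts (median 19608955) and a female library 2242215 to 27789716 (median 19077345). A block of 7 abundant genes held 1.12% to 75.4% of the gene counts of a male library and 1.03% to 66.5% of those of a female library. Levels below are therefore given as normalised CPM, meaning CPM on a library size scaled by the trimmed mean of M-values (TMM), unless a value is said to be a median on column totals. A list of 27 genes nearly limited to males was picked from these same libraries. Their medians on column totals were at least 5 CPM in males and under 0.1 CPM in females. They summed to 437 to 1254 normalised CPM in male libraries and to 0.463 to 29.1 normalised CPM in female libraries. Since the sex labels chose these genes, the sums are a description and no test of the labels.

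Within the 277 genes, the male medians on column totals ranged from 5.05 to 3148 CPM (median 34.2) and the female medians from 0.102 to 184.2 CPM (median 1.45). The ratio of the medians ranged from 8.01 to 1023 with a median of 16.1. It lay between 8 and 16 for 137 genes, between 16 and 64 for 103 genes and at 64 or more for 37 genes. At the edge of the rule, the smallest ratios inside were 8.01 and 8.07, and the largest ratios outside were 8.00 and 7.94 (7.998 for the nearest). The lowest male medians inside were 5.05 and 5.06 CPM, and the nearest outside were both 4.77 CPM. The lowest female medians inside were 0.102 and 0.108 CPM, and the nearest outside were 0.0974 and 0.0949 CPM.

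**Figure D1:**
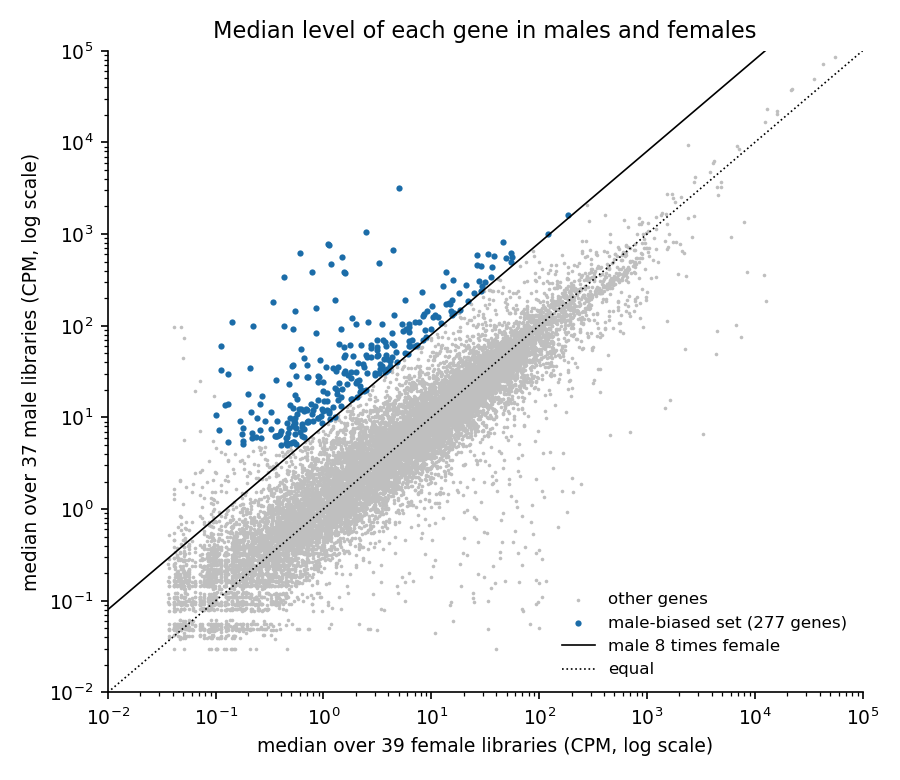
Each point is 1 gene, with its median over the 39 female libraries on the x axis and over the 37 male libraries on the y axis (CPM on column totals, both log scales). Blue points are the 277 genes of the set, which lie on or above the solid line of 8 times the female median and run from 5.05 to 3148 CPM in males.

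The male bias of the medians was not a gap between all male and all female libraries. In 68 of the 277 genes every male library was above every female library (56 genes on column totals), and in the other 209 the sexes overlapped. The rule favours such a separation, and the same count was not made over all genes, here or for the parts of the set below. In 113 genes at least 1 female library reached or passed the male median. A count was found in every male library for 263 genes and in every female library for 84 genes. Detection in females was thus broad for some genes and patchy for others: the number of the 39 female libraries with a count ranged from 21 to 39 per gene, with a median of 37.

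The genes of largest male or female median, 3 in all, show both kinds of pattern. APZ42_011655, the gene with the largest male median, ranged from 2134 to 5111 normalised CPM in males (median 2967) and from 0.906 to 119.4 normalised CPM in females (median 4.87). Every male library was above every female library, and the lowest and the highest female values were both from 40-day females, in replicates 1 and 2. In 40-day replicate 2 the genes nearly limited to males also had their highest female sum, at 29.1 normalised CPM. The part of such transcripts in the highest value was not tested.

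APZ42_019638 ranged from 894 to 3790 normalised CPM in males (median 1747) and from 12.4 to 2263 normalised CPM in females (median 165.9). The female value of 2263 came from the single 70-day library, which was above the male median, so the sexes overlapped. APZ42_011246 ranged from 544 to 1909 normalised CPM in males (median 1070) and from 2.09 to 1842 normalised CPM in females (median 108.7). Here too the highest female library was the 70-day one and the sexes overlapped, while the lowest female value came from a 25-day library, replicate 3, as it did for APZ42_019638.

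Summed over the set, the level varied less in males than in females. The 277 genes summed to 18681 to 61019 normalised CPM in male libraries (median 33298) and to 340 to 15690 normalised CPM in female libraries (median 4366). As a share of gene counts this was 0.882% to 7.81% in males and 0.0373% to 1.98% in females. On normalised CPM no female library reached the lowest male library, but the sexes overlapped in the share of gene counts and on column totals, where sums ran from 8825 to 78131 CPM in males and from 373 to 19844 CPM in females.

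The female values followed the age group rather than a steady course. At 10 days the 3 libraries held 4555, 4366 and 2760 normalised CPM. At 15 days they held 608, 630 and 541. At 20 days one library held 4656 and the other 877. The level was therefore low in every 15-day library and mixed at 20 days.

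The 25-day libraries held 406, 457 and 535 normalised CPM, and the 30-day libraries held 14267, 5636 and 2508. The 35-day libraries held 432, 503 and 447, and the 40-day libraries held 7067 and 5136. The 45-day libraries held 549, 340 and 544, and the 50-day libraries held 6702, 15690 and 7599. All 12 libraries of females of 15, 25, 35 and 45 days were thus between 340 and 630 normalised CPM, and each library of 10, 30, 40 and 50 days was at 2508 or above. This holds for the sum and not gene by gene: in 30-day replicate 3, whose sum was 2508, 203 genes were at or below their female median and 164 had a count, the fewest of any female library.

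The 55-day libraries held 619, 3436 and 3307 normalised CPM, each below the lowest 50-day library at 6702. After 55 days the alternation was not seen. The 60-day libraries held 4698 and 1757, which overlapped the 55-day range, and the 65-day libraries held 9542 and 8410. The 70-day library held 14694, the 75-day libraries 8921, 4586 and 7684, and the 80-day libraries 11255, 11402 and 5409. Apart from 1 library of 55 days, each library of 55 days or older was above every library of 15, 25, 35 and 45 days.

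The 12 libraries of these 4 ages held 11033271 to 27789716 gene counts, the block of 7 abundant genes took 1.03% to 29.9% of them, and the spike-in rows held 0.503% to 1.41% of all counts. All 3 ranges overlapped those of the other female libraries, which held 2242215 to 26314552 gene counts, 2.86% to 66.5% of them in the block and 0.318% to 2.31% of all counts in the spike-in rows. The ratio of 2 spike-ins divided the libraries of the series into a lower and a higher cluster. The 15-day libraries were all in the lower cluster, the 25-day libraries all in the higher one, and the 35-day and 45-day libraries in both. The 153 strongly female-biased genes also detected in males summed to 109843 to 175698 normalised CPM in the same 12 libraries, against 65797 to 141328 in the female libraries of 10, 20, 30 and 40 days.

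**Figure D2:**
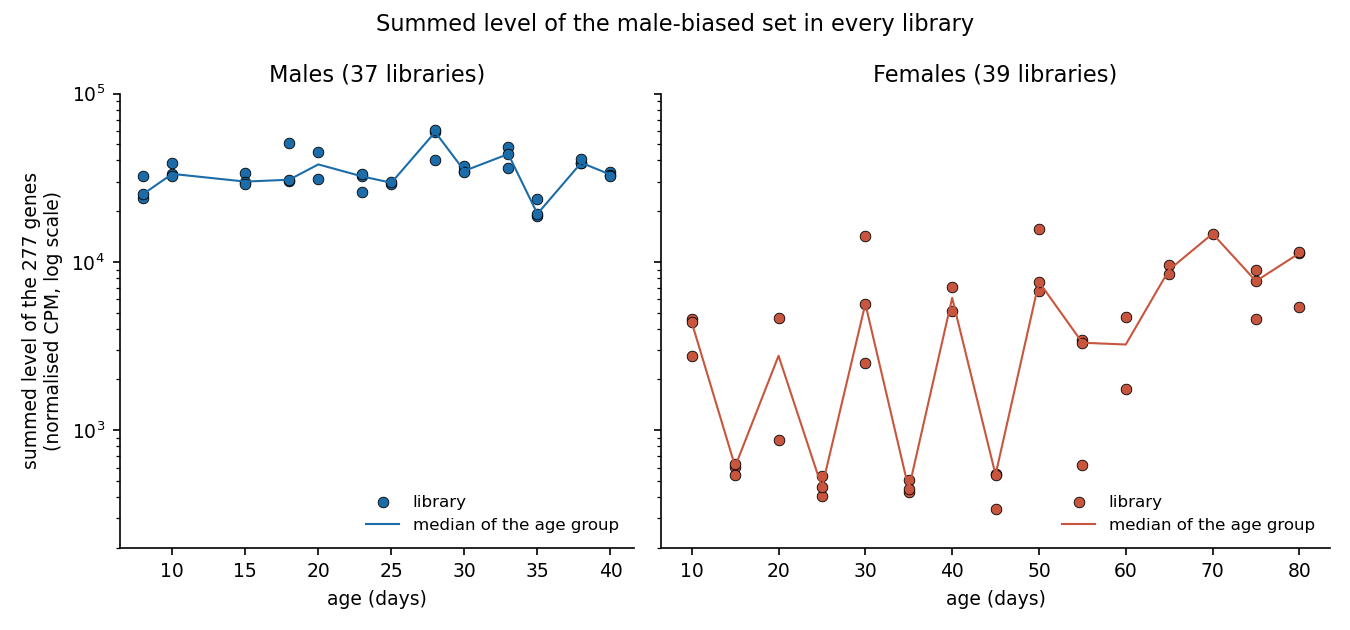
Summed level of the 277 genes (normalised CPM, log scale) against age in days, with 1 point per library, males on the left and females on the right, and a line through the median of each age group. Male libraries lie between 18681 and 61019, while female libraries of 15, 25, 35 and 45 days lie between 340 and 630 and most other female libraries at 2508 or above.

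These ages also bear on which genes were chosen. With the females of 15, 25, 35 and 45 days left out, the same rule would pick 113 genes, of which 109 are among the 277. The female medians of most genes in the set therefore rest in part on these low libraries. The female library with most genes at male level was replicate 2 at 50 days, in which 88 of the 277 genes were at or above their male median.

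Males of 35 days stood apart. Their 3 libraries summed to 18681, 23638 and 19286 normalised CPM and were the 3 lowest male libraries. The 28-day libraries summed to 40260, 59039 and 61019, which included the 2 highest, but the first of them was below single libraries of 18, 20, 33 and 38 days. Gene by gene, the mean log2 level of the 35-day males was below that of the other males in 241 of 277 genes. Over all 277 genes the median difference was -1.99 on the log2 scale. In 95 genes each of the 35-day males was below every other male library. The same counts were not made over all genes, so how far they are particular to the set was not tested.

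Spread within a sex was large for this set. The SD of the log2 level over libraries had a median of 0.94 in males and 2.00 in females. Among genes whose median was 1 CPM or more in the sex at hand, the median SD was 0.94 for the 277 genes in males against 0.46 for all such genes, and 2.13 for 165 genes of the set in females against 0.58 for all such genes. The female-biased genes had a median SD of 0.93 in males (91 genes) and 1.09 in females (153 genes). These comparisons were not matched for level. Female levels of the set are low by the rule, and the part of low counts in the SD was not tested.

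Part of the set moved together from library to library, and the genes that did so in males were largely those that did so in females. Pairwise correlations of log2 levels had a median of 0.256 over the male libraries and 0.416 over the female libraries (38226 gene pairs). The first principal component held 58.1% of the variance of the set in males and 66.4% in females. Each gene was then correlated with the mean of the other genes of the set, within a sex. This correlation was at least 0.8 for 114 genes in males and 127 genes in females, with 92 genes in both. It was under 0.2 for 85 genes in males and 44 genes in females, and those 44 were under 0.2 in males too.

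Across the 277 genes, the correlation with the others in males and that in females were related, with a Pearson r of 0.851 and a Spearman rho of 0.819 (0.789 for Pearson on column totals). The genes share libraries and depth, so these values are descriptions. The genes that followed the others over females were also those lowest in the 35-day males: the 35-day difference and the correlation over females had a Pearson r of -0.734 and a Spearman rho of -0.789 across the 277 genes. Outside the set, 109 of 13864 measured genes followed it with r of at least 0.8 over males and 107 of 13648 did so over females, and 0 genes had r of -0.8 or below in either sex. Of these, 107 over males and 106 over females had a higher median in males than in females, with a median ratio of 4.55 and 4.57.

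**Figure D3:**
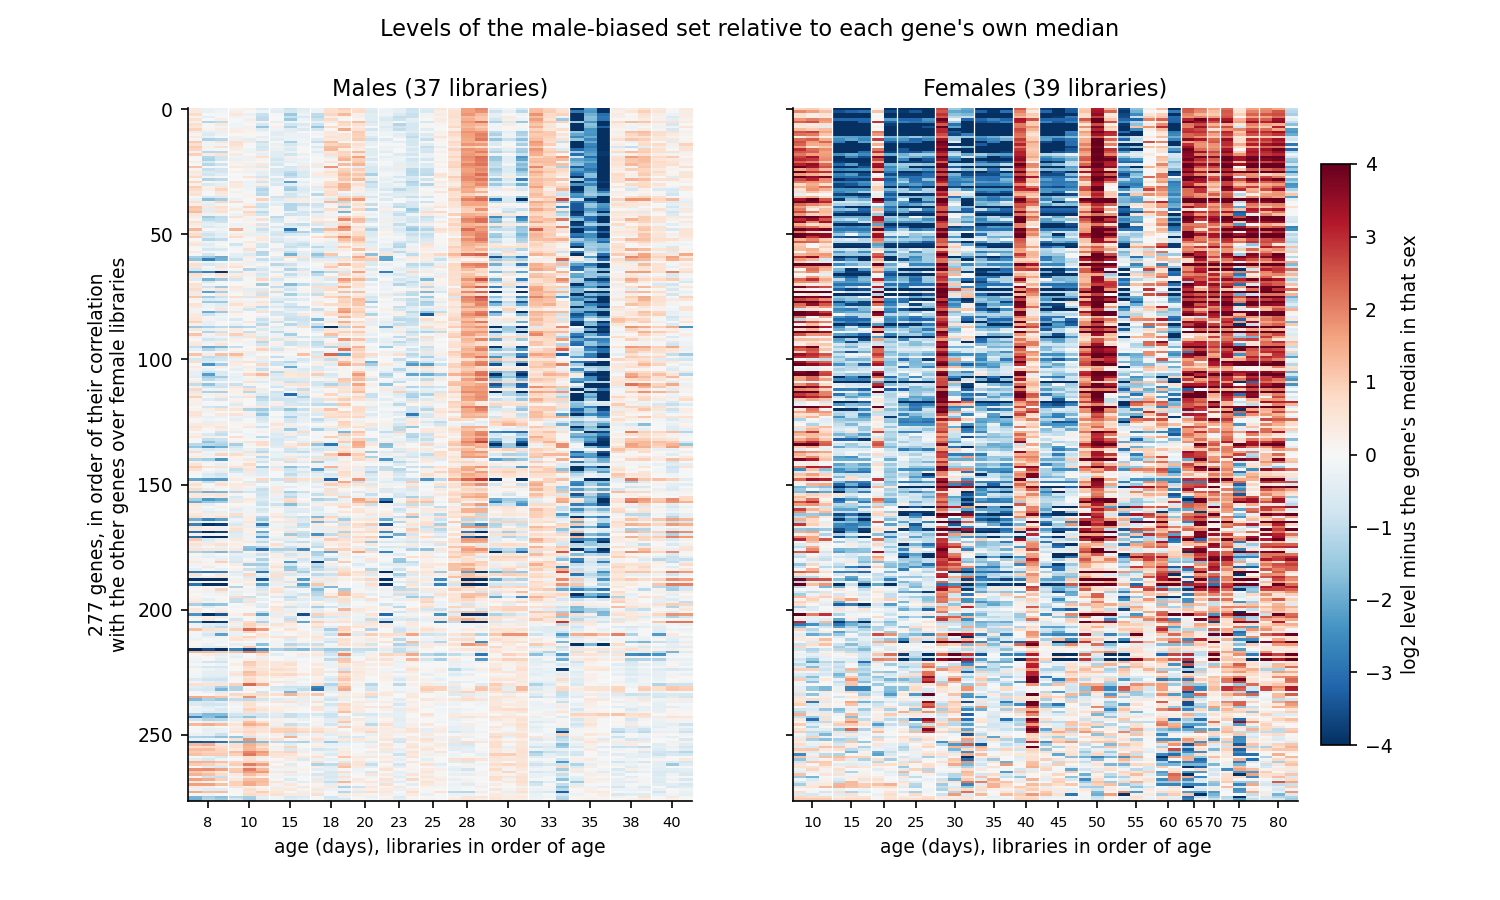
Log2 level of each of the 277 genes (rows) minus its own median in that sex, in every library (columns, in order of age), males on the left and females on the right. Rows run from the closest to the least close correlation with the other genes over females. The upper rows are blue in the 3 libraries of 35-day males and in females of 15, 25, 35 and 45 days, and the lowest rows show no such change.

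The 92 genes that followed the others in both sexes were the ones that swung. Their medians on column totals were 47.5 CPM in males and 2.27 CPM in females (median over the 92 genes). They summed to 570 to 33367 normalised CPM in males (median 9140) and to 85.0 to 10543 normalised CPM in females (median 857). In 0 of the 92 genes was every male library above every female library. In the 35-day males they summed to 570 to 2100 normalised CPM, below the lowest value of 4014 in the other male libraries, and the median difference from the other males was -3.44 on the log2 scale. In females of 15, 25, 35 and 45 days they summed to 85.0 to 149.3 normalised CPM, against 1850 to 3191 in 10-day females. Single libraries of other ages were as low, with 89.3 in 20-day replicate 2, 130.1 in 55-day replicate 1 and 148.5 in 60-day replicate 3, and 2 of the 3 libraries of 30 days stood at 176.2 and 252.3.

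The 44 genes that followed the others in neither sex varied less as a sum. They summed to 3201 to 6402 normalised CPM in males (median 4403) and to 57.5 to 279.6 normalised CPM in females (median 87.2). In 41 of the 44 genes every male library was above every female library. In the 35-day males they summed to 3737 to 5205 normalised CPM, inside the range of the other males, with a median difference of -0.04 on the log2 scale. Among females, 40-day replicate 2 was the highest with 279.6 and 25-day replicate 3 followed with 163.5, while the other female libraries were at 123.9 or below. The genes nearly limited to males were also highest in the first of these libraries, at 29.1 normalised CPM, and stood at 9.76 in the other, and the part of such transcripts in the levels of the set was not tested.

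Whether the genes differed among ages at all was tested with edgeR's quasi-likelihood test of age group as a factor, a test added after the data were seen. In males 239 of 277 genes differed among ages at an adjusted p under 0.05, or 86.3%, against 27.1% of all 16606 genes tested. In females 213 of 267 genes differed, or 79.8%, against 46.7% of all 16300 genes tested. Both sexes had a difference in 188 genes, and the same joint count was not made over all genes. The genes that followed the others were picked by their variation over these same libraries, so their counts are descriptions. All 92 genes that followed the others differed among ages in males and 91 of them in females. Of the 44 that followed in neither sex, 37 differed among ages in males and 8 of the 38 tested did so in females.

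The female count depended on the 4 low ages. Females of these ages also enter the female medians of the rule. The female share above that of all genes is therefore not free of the choice of genes. Without females of 15, 25, 35 and 45 days, 28 of 269 genes differed among ages in females (10.4%), when 17.9% of all 16550 genes did, so the share was then below that of all genes. Among females of 45 to 80 days 46 of 267 genes differed (17.2%), when 2.72% of all 16194 genes did. Without the 35-day males, 211 of 277 genes differed among ages in males (76.2%), when 24.1% of all 16472 genes did.

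A straight line in age was tested next, with slopes as log2 change per 10 days, by edgeR's quasi-likelihood test with Benjamini-Hochberg adjustment over all genes tested. This fit treated libraries of the same age as independent. The share of a gene's log2 variance that lay between ages had a median of 74.2% in males and 68.5% in females. This share was not corrected for the number of age groups, which raises it even without age differences. It was not computed over all genes. Swings shared by the libraries of an age can make the p-values and SEs of slopes too small. In males 31 of the 277 genes rose (11.2%) and 33 fell (11.9%), when 15.2% of all genes rose and 17.5% fell. These shares are below those of all genes in this fit. The slope was positive in 182 genes and negative in 95, with a median of 0.07 for the set and 0.00 for all genes (0.0049). With limma-voom and quality weights 123 of the 277 slopes were positive, so the more frequent sign turned. Without the 35-day males 68 genes rose (24.5%) and 30 fell (10.8%), when 15.4% of all genes rose and 17.4% fell, which put the share of rises above that of all genes.

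The 2 genes named for a rise in males were APZ42_025440 and APZ42_027274. APZ42_025440 ranged from 7.95 to 205.3 normalised CPM in males (median 132.1) and from 1.35 to 12.8 in females (median 6.53). Its male level was lowest at 8 days, with a mean of 9.15 ± 1.83 normalised CPM (SD, n = 3), stood at 68.3 ± 1.87 (SD, n = 2) at 20 days and at 180.8 ± 11.8 (SD, n = 3) at 28 days, and stayed between 128.4 and 187.1 in the mean of every later age. The sexes overlapped only through the youngest males, since the 8-day male libraries and 1 of 10 days were at or below the highest female library.

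Its slope was 1.19 ± 0.11 (SE) in males (edgeR adjusted p = 2.7e-10), and 97.6% of the variance of its log2 level over male libraries lay between ages, the highest share in the set. In females it rose by 0.20 ± 0.04 (SE) per 10 days (edgeR adjusted p = 0.00023). APZ42_027274 ranged from 22.9 to 172.8 normalised CPM in males (median 77.5) and from 0 to 3.53 in females (median 0.846), with no overlap between the sexes. It rose in males by 0.60 ± 0.06 (SE) per 10 days (edgeR adjusted p = 9.7e-10), and the male age means were lowest at 8 days (25.9, libraries from 22.9 to 31.7) and highest at 35 days (145.3 ± 6.35, SD, n = 3). Its female slope of -0.04 ± 0.07 (SE) did not pass the test.

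The 2 genes named for a fall in males were low in all females. APZ42_001842 ranged from 3.60 to 37.2 normalised CPM in males (median 9.78) and from 0 to 0.949 in females (median 0.454). It fell by 0.59 ± 0.07 (SE) per 10 days in males (slope -0.59, edgeR adjusted p = 6.0e-08), with 10-day males highest (30.9 ± 7.14, SD, n = 3) and 33-day and 40-day males lowest (4.73 ± 1.01 and 5.13 ± 0.707, SD, n = 3 each). APZ42_032562 ranged from 2.77 to 35.8 normalised CPM in males (median 13.6) and from 0 to 2.09 in females (median 0.559). It fell by 0.48 ± 0.06 (SE) per 10 days in males (slope -0.48, edgeR adjusted p = 1.6e-07), with the youngest males highest at 34.0 ± 2.24 at 8 days, followed by 25.0 ± 0.938 at 10 days (SD, n = 3 each). No female library of either gene reached the lowest male library.

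In 29 of the 33 genes that fell in males every male library was above every female library, against 68 of the 277 genes. This count was not made over all genes. The SD of the log2 level of these 33 genes had a median of 0.62 in males and 1.16 in females. For the whole set it was 0.94 and 2.00, and the part of spread in the separation was not tested. The correlation of the 33 genes with the other genes had a median of -0.06 in males. The 31 genes that rose included 10 with the sexes apart. Of the 92 genes that followed the others, 0 were called for a slope in males by edgeR; 1 had an unadjusted p under 0.05, DESeq2 called 1 and limma-voom 0.

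In females 267 of the 277 genes could be tested for a slope, and the other 10 had too few counts. Of these 77 rose (28.8%) and 2 fell (0.749%), when 21.8% of all genes rose and 20.1% fell. The slope was positive in 250 of 267 genes, with a median of 0.27 for the set and 0.02 for all genes. The share of rises was above, and the share of falls below, that of all genes. Both shares are likewise not free of the choice of genes by female medians. The female-biased genes ran the other way, with 7 of 153 that rose and 136 that fell in females.

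The count of rises in females depended on these low libraries, on the scaling and on the tool. Without females of 15, 25, 35 and 45 days 7 of 269 genes rose (2.60%) and 2 fell, when 8.37% of all genes rose and 10.1% fell, so the share of rises was then below that of all genes. Among females of 10 to 40 days 1 of 255 genes rose and 1 fell, when 4.32% of all genes rose and 2.77% fell.

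Among females of 45 to 80 days edgeR called 0 rises and 0 falls in the set, but of all 16194 genes it called 1 rise and 0 falls there. At an unadjusted p under 0.05 the set had 35 rises and 2 falls, while DESeq2 called 4 rises and limma-voom 7. With the spike-in counts as library sizes 12 genes rose and 12 fell (4.49% each), when 2.45% of all genes rose and 54.3% fell and the median slope of all genes was -0.13. With limma-voom and quality weights 181 rose (67.8%) and 4 fell, when 25.2% of all genes rose and 25.2% fell.

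The 2 genes named for a rise in females were present in every female library. APZ42_028535 ranged from 18.3 to 67.7 normalised CPM in males (median 36.4) and from 0.447 to 11.6 in females (median 3.90), with no overlap. Its female means were 0.796 ± 0.438 normalised CPM at 10 days, 3.57 ± 0.570 at 25 days and 9.26 ± 1.88 at 80 days (SD, n = 3 each). It rose by 0.44 ± 0.05 (SE) per 10 days in females (edgeR adjusted p = 8.2e-08), and by 0.42 without the 4 low ages (edgeR adjusted p = 7.50e-05). Its mean at 25 days was not below that of 2.86 ± 1.95 at 20 days (SD, n = 2), but 35 days stood at 1.51 ± 0.309 and 45 days at 2.84 ± 0.366 (SD, n = 3 each), both below the 4.08 ± 0.257 of 40 days (SD, n = 2).

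APZ42_021578 ranged from 30.2 to 56.4 normalised CPM in males (median 47.9) and from 2.66 to 13.0 in females (median 5.97), again with no overlap. It rose by 0.17 ± 0.03 (SE) per 10 days in females (edgeR adjusted p = 4.1e-05). With spike-in library sizes its slope was 0.03 and did not pass the test (edgeR adjusted p = 0.66).

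Just 2 genes fell in females, and both rose in males. APZ42_025444 ranged from 65.7 to 350.9 normalised CPM in males (median 241.9) and from 3.81 to 53.8 in females (median 26.2), so the sexes did not overlap. In males its mean was 87.4 ± 20.9 normalised CPM at 8 days, 321.9 ± 27.4 at 28 days and 251.3 ± 16.0 at 40 days, and in females 53.5 ± 0.441 at 10 days and 14.4 ± 3.92 at 80 days (SD, n = 3 each). It rose in males by 0.38 ± 0.07 (SE) per 10 days (edgeR adjusted p = 7.2e-05) and fell in females by 0.28 ± 0.04 (SE) per 10 days (slope -0.28, edgeR adjusted p = 3.6e-07).

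APZ42_025469 ranged from 16.4 to 89.3 normalised CPM in males (median 60.3) and from 0 to 12.8 in females (median 7.09). The lowest males were of 8 days and the highest females of 10 days, and no female library reached a male one. It rose in males by 0.42 ± 0.07 (SE) per 10 days (edgeR adjusted p = 1.4e-05) and fell in females by 0.25 ± 0.05 (SE) per 10 days (slope -0.25, edgeR adjusted p = 3.9e-05). In both genes the slopes of the sexes thus had opposite signs, each past the test.

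**Figure D4:**
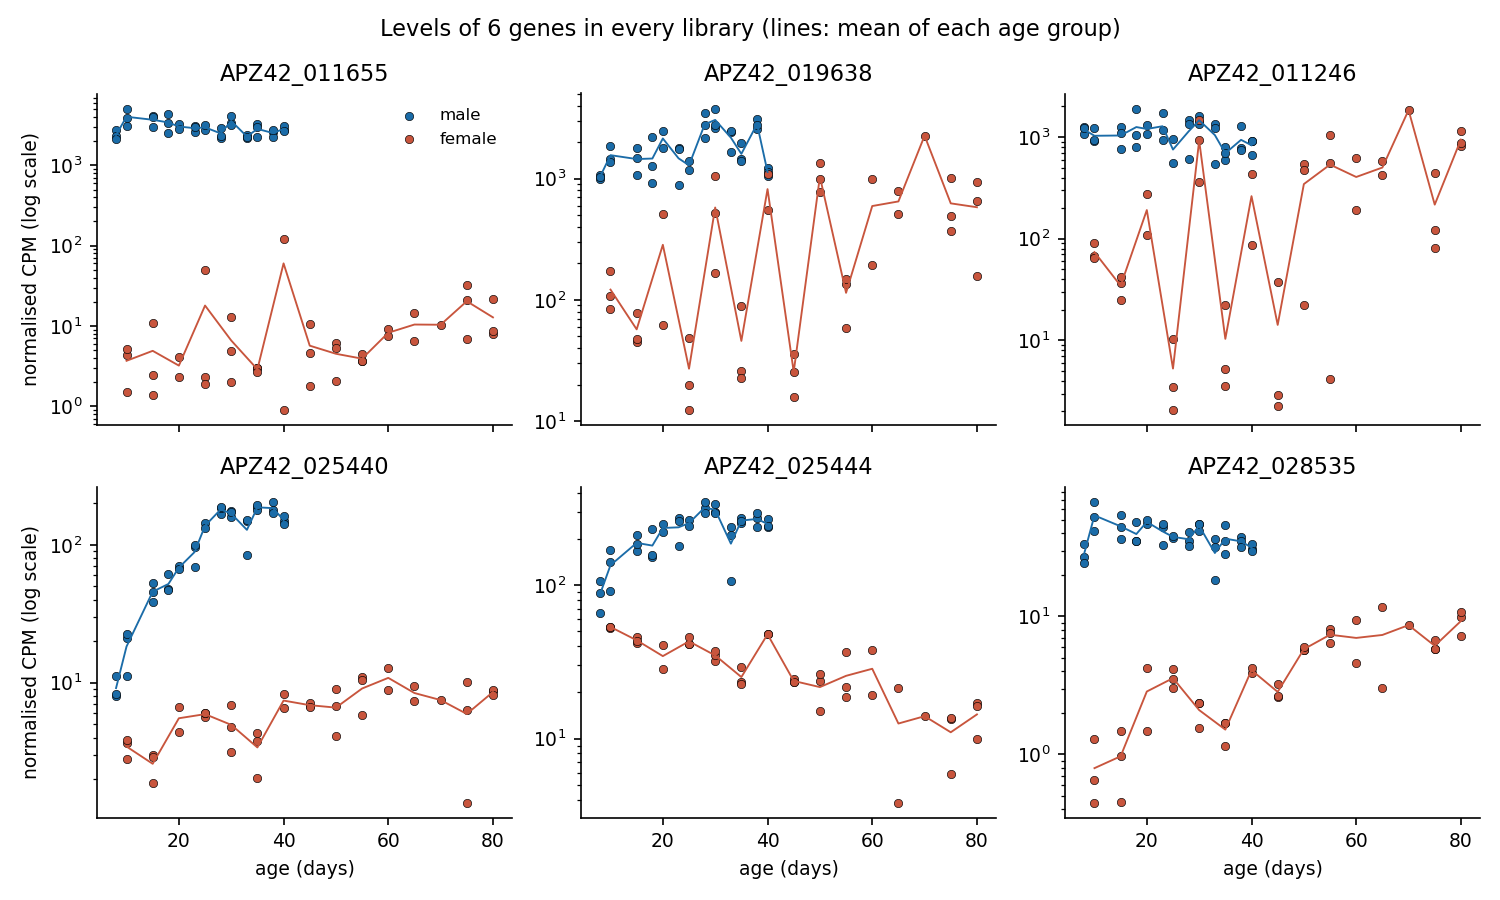
Normalised CPM (log scale) of 6 genes against age in days, with 1 point per library, blue for males and red for females, and lines through the mean of each age group. APZ42_011655 lies between 2134 and 5111 in males, APZ42_019638 and APZ42_011246 swing in females, APZ42_025440 is at 9.15 in 8-day males and 187.1 in 35-day males, APZ42_025444 diverges between the sexes, and APZ42_028535 is higher in older females.

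Across both sexes, 20 genes rose in males and females alike and 2 rose in males and fell in females. A further 3 fell in males and rose in females, 9 rose in males without a call in females, 54 rose in females without a call in males, and 23 fell in males without a call in females. The remaining 7 of the 33 genes that fell in males were too low to be tested in females. These joint counts were not made over all genes, so how far they are particular to the set was not tested. The genes of largest female median had different calls: APZ42_019638 rose in males by 0.26 ± 0.09 (SE) per 10 days (edgeR adjusted p = 0.026) and in females by 0.44 ± 0.13 (edgeR adjusted p = 0.0080), and APZ42_011246 rose in females by 0.43 ± 0.17 (edgeR adjusted p = 0.034). Without the 4 low female ages neither female slope passed the test (0.25, edgeR adjusted p = 0.15, and 0.24, edgeR adjusted p = 0.24). APZ42_011655 had slopes of -0.11 ± 0.05 in males and 0.15 ± 0.13 in females (SE), and neither passed the test (edgeR adjusted p = 0.11 and 0.35).

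The male call of APZ42_019638 and the female call of APZ42_011246 were near the threshold. The male rise of APZ42_019638 was lost without any of the 8-day male libraries or without 38-day male replicate 1 (edgeR adjusted p from 0.0507 to 0.0602). The female rise of APZ42_011246 was lost without 10-day replicate 3, any of the 15-day libraries, the 70-day library or 80-day replicate 3 (edgeR adjusted p from 0.0503 to 0.0681). The male rise of APZ42_019638 was also lost in males of 10 to 40 days (edgeR adjusted p = 0.24) and of 15 to 40 days (0.40), on column totals (0.072) and with spike-in library sizes (0.054). With spike-in library sizes the female rises of APZ42_019638 and APZ42_011246 were lost too (edgeR adjusted p = 0.068 and 0.083). APZ42_011655 fell in males of 10 to 40 days (slope -0.19, edgeR adjusted p = 0.0056), with a term for the spike-in cluster (0.044) and without 8-day male replicate 3 (0.0371).

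**Figure D5:**
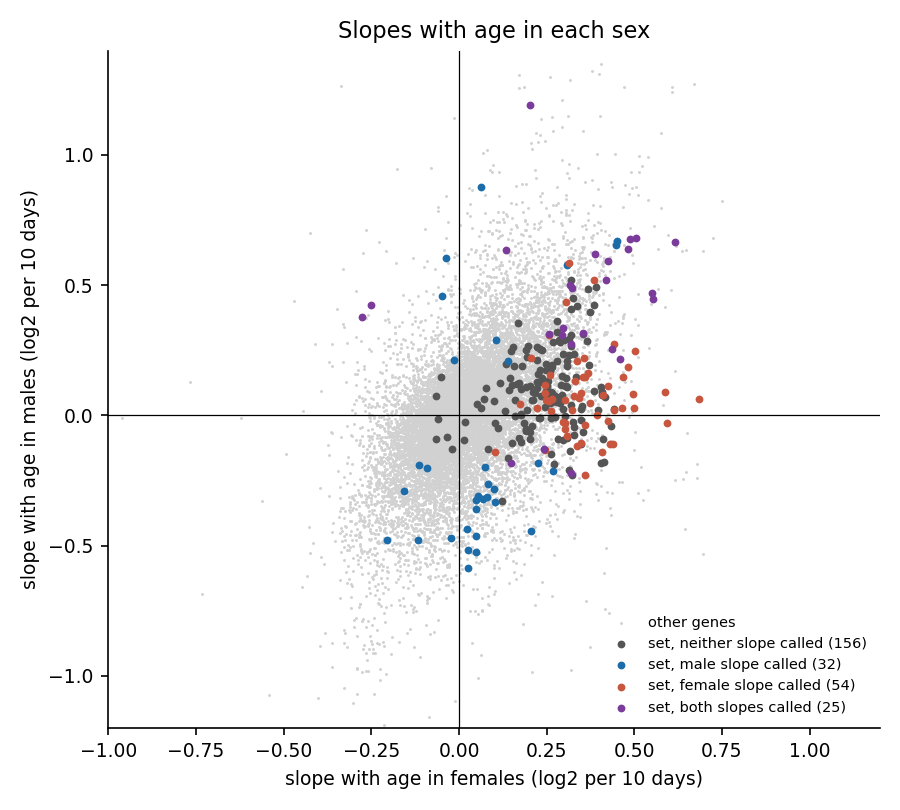
Slope with age in females (x axis) against slope with age in males (y axis), both in log2 per 10 days, for the 267 genes of the set tested in both sexes (coloured by call) and for the other genes (grey). Most of the set lies right of 0, with 250 positive female slopes, and is spread above and below 0 in males. Some grey points lie outside the drawn range.

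The difference between the slopes of the sexes was tested in 1 model over all 76 libraries. Libraries of the same age were again treated as independent. The slope was higher in males than in females for 7 of 277 genes (2.53%) and lower in males for 18 (6.50%), when 4.54% and 7.53% of all 17706 genes were called in these directions. Both shares are below those of all genes in this fit. The median of the slope in males minus the slope in females was -0.18 for the set and -0.01 for all genes, and 60 of the 277 differences were positive. Without the 35-day males and the females of 15, 25, 35 and 45 days 161 of the 277 differences were positive, so the more frequent sign turned.

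Among the genes with a higher slope in males, APZ42_025440 had the smallest p, with a difference of 0.99 ± 0.12 (SE, edgeR adjusted p = 2.5e-09), followed by APZ42_025444, with 0.66 ± 0.09 (SE, edgeR adjusted p = 5.7e-08). A lower slope in males was found for APZ42_028535, with -0.55 ± 0.09 (SE, edgeR adjusted p = 1.5e-05). APZ42_000309 had a difference of -0.86 ± 0.15 (SE, edgeR adjusted p = 3.9e-05). It ranged from 5.33 to 63.8 normalised CPM in males (median 13.4) and from 0 to 1.65 in females (median 0.119), with no overlap, and it was too low to be tested in females alone.

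The ages compared differ between the sexes, which bears on these counts. With both sexes held to 10 to 40 days, 13 genes had a higher (4.69%) and 31 a lower slope in males (11.2%), when 4.01% and 2.77% of all 17820 genes did, which put the share of lower slopes above that of all genes. In the same fit the difference of APZ42_000309 was -0.35 and no longer passed the test (edgeR adjusted p = 0.64). Lower slopes numbered 4, against 7 higher ones, with spike-in library sizes, and they numbered 11 without 8-day male replicate 2 and 9 without 10-day male replicate 3.

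For the effect of age, the authors' deposited table gave an adjusted p for 259 of the 277 genes, with 141 positive and 3 negative effects under 0.05, when 24.3% of all genes were positive and 18.2% negative. Which libraries or which sex that effect covers is not stated in the sources used here. Its effects correlated with the female slopes above at a Pearson r of 0.884, and its counts cannot be set directly against the calls made here. The authors' deposited table of the interaction gave 7 positive and 26 negative effects among 259 genes, when 5.92% and 9.34% of all genes were called in these directions. The sources used here do not state how sex was coded in that authors' deposited table, but its effects correlated with the male minus female difference above at a Pearson r of 0.878, so a positive effect there is a higher slope in males. The authors' deposited tables are drawn from the same study, so their counts are no independent support.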

How the data were processed

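Whole-animal RNA of Daphnia magna was read as Illumina TruSeq mRNA libraries in 2x100bp runs, per the labels' protocols. The submitters' processing notes name TopHat2 2.1.1 and DESeq2 1.20. No source used here states the counter, its strand setting, the genome build or the annotation, which leaves genes that overlap or have near-identical copies uncertain. The authors deposited whole-number counts for 26646 gene IDs and 7 spike-in rows in 80 columns. Their deposited tables hold, per the file headers, a mean normalised count (signal), a log2 change and its error, a score and p-values. Their sex table was not used, since sex chose the genes.

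The spike-in rows (0.217% to 2.31% of counts) stayed out of library sizes. The labels mark 3 columns as mislabelled, which were left out, and 2 technical runs of 1 sample were summed. Sex, age and replicate came from the titles. The rule used medians of CPM on column totals. Tests used edgeR 4.0.16 in R 4.3.3 (TMM, filterByExpr, quasi-likelihood F-test, Benjamini-Hochberg over all genes tested, adjusted p under 0.05), with the standard error as the size of the slope divided by the square root of F. Log2 levels used 0.1 CPM as pseudocount. The tests were also run on simulated counts, drawn independently for each library and with no swings shared by libraries of an age. That run therefore cannot show how the tests behave under such swings. Alternatives used DESeq2 1.42.0, limma 3.58.1 and the settings given in the closing section. Figures were drawn with matplotlib 3.10.9.

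Named genes are the 2 of largest male median, the 2 of largest female median, and for each test of a slope the 2 of smallest p in each direction among called genes with a mean log2 CPM of at least 3 (at least 1 in females). The genes and lists were chosen with earlier results of these data known. Names of genes, and lists by function, could not be used because 0 IDs matched the reference table.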

Additional observations from a re-analysis of the deposited data

Results flagged for a closer look

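Slopes with age differed between the sexes by the test of the difference itself in 4 named genes. The slope in males minus the slope in females was 0.992 for APZ42_025440, 0.655 for APZ42_025444, -0.547 for APZ42_028535 and -0.857 for APZ42_000309 (log2 per 10 days). The age ranges differ, 8 to 40 days in males and 10 to 80 days in females. With both sexes held to 10 to 40 days the difference of APZ42_000309 was -0.35 and did not pass (edgeR adjusted p = 0.64). Within the higher spike-in cluster it was -0.38 and did not pass either (edgeR adjusted p = 0.40). In the other settings tried for APZ42_000309 the difference passed. A count of this gene was found in 26 of the 39 female libraries.

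The 3 libraries that the labels mark as mislabelled entered no comparison, and levels of the set in them went against their sex labels. On column totals the 277 genes summed to 38818.1 CPM in the library labelled female, 20 days, with 188 genes at or above their male median. They summed to 2711.71 CPM in the library labelled male, 20 days, and to 660.539 CPM in the library labelled male, 25 days. On the same scale the male libraries in use summed to 8825 to 78131 CPM and the female ones to 373 to 19844 CPM.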

How the results depend on the processing

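Membership depended on its thresholds: 524 genes had a ratio of at least 4, 140 one of at least 16, and 113 were chosen without females of 15, 25, 35 and 45 days. Without single libraries or 1 replicate number it ranged from 224 to 299. Leaving out single libraries gave 23 to 37 rises and 30 to 39 falls in males, 59 to 103 rises and 2 to 3 falls in females, 226 to 251 (males) and 204 to 223 (females) differences among ages, and 7 to 7 higher and 9 to 22 lower slopes in males than females.

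Rises in males numbered 10 within the higher spike-in cluster, 15 at 10 to 40 days, 8 at 15 to 40 days and 68 without 35-day males; falls numbered 18 on column totals, 11 within that cluster and 21 at 15 to 40 days. In females rises and falls were 12 and 12 with spike-in sizes, 181 and 4 with limma-voom, 1 and 1 within the higher cluster and at 10 to 40 days, 0 and 0 at 45 to 80 days; 7 rose without the 4 low ages. Higher slopes in males numbered 13 at 10 to 40 days. Lower slopes numbered 8 on column totals, 4 with spike-in sizes, 97 with limma-voom, 6 and 1 within the lower and higher cluster, 31 at 10 to 40 days and 10 without 35-day males and the 4 female ages. Differences among ages numbered 122 in males with spike-in sizes, and in females 46 at 45 to 80 days and 28 without the 4 ages. The cause was not tested. No slope of a named gene changed sign, but balances over the set turned: 123 of 277 male slopes were positive with limma-voom (182 above), 161 slope differences were positive without 35-day males and the 4 female ages (60 above), and higher against lower slopes in males were 7 and 4 with spike-in sizes, 8 and 6 in the lower cluster and 6 and 1 in the higher one.

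With replicate number as a block 29 rose and 32 fell in males, 79 rose and 2 fell in females, and 7 and 18 slopes differed. Same-numbered libraries had a median correlation of 0.00426, and 17 of 63 libraries were closest to their own number. The clusters, the fits without whole ages and the tests among ages were added after seeing the data. Low female counts limit the precision of female slopes, and 10 genes could not be tested there.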
